A study of Mus musculus with 24 samples.

Results

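The dermal papilla (DP) of control mice was compared between early anagen at postnatal day 24 (P24) and mid anagen at P28 of the second hair cycle. The members are the 6 control libraries of these ages, 3 per age, out of 24 libraries of DP RNA in the series, which also hold telogen ages (P20 and P60) and mice that lack Hdac1 and Hdac2 in the DP (dM1/2). They were chosen by their labels for age and genotype alone, and no measured value was used. Every mouse carried the Cor-cre transgene, in which Cre is driven by Corin and so acts in the DP, and a ROSA26 EYFP reporter that Cre turns on. A control carried Cor-cre/+ with at least 1 wild-type allele of Hdac1 or Hdac2, and control was a mixed class: its genotypes were Hdac1Flox/+; Hdac2Flox/+, Hdac1Flox/+; Hdac2+/+, Hdac1+/+; Hdac2Flox/+, Hdac1Flox/+; Hdac2Flox/Flox and Hdac1Flox/Flox; Hdac2Flox/+. The labels do not say which of these each library has. The dM1/2 mice were Cor-cre/+; Hdac1Flox/Flox; Hdac2Flox/Flox. All mice at P24 and P28 were male, the Cre line was on FVB and the floxed and reporter lines on C57BL/6J. Each library is labelled a biological replicate and comes from YFP+ cells of the skin of 1 mouse, sorted by FACS in repeated rounds.

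The DP is a small group of specialized fibroblasts under the follicle epithelium, to whose progenitors it sends signals. At the start of anagen, the growth phase, FGF, Wnt and R-spondin signals and inhibitors of BMP from the DP act on these progenitors, and Sonic hedgehog from the epithelium acts on the DP in return. By mid anagen the bulb has enlarged and encloses the DP, and the hair shaft with its pigment is being made. In telogen the follicle rests. The question here is which DP transcripts differ between the first and the middle part of this growth phase in control mice.

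The 6 libraries held between 35469841 and 48687886 reads on genes. Levels are given as normalized reads, the read count of a gene over a scaling factor that is fixed for each library, so they are comparable between libraries for 1 gene and not between genes of different length. The DP label was checked on the summed level of a list of 32 DP signature genes. It was 502680, 568732 and 573060 normalized reads in P24 replicates 1, 2 and 3. In P28 replicates 1, 2 and 3 it was 492796, 285219 and 803363. Versican (Vcan), a proteoglycan of the DP, lay between 45612 and 208236. Markers of other cells were summed in the same way, and sums over different genes are no measure of cell numbers. The summed level of 23 keratinocyte markers was between 660 and 1379 at P24 and between 463 and 1160 at P28, that of 11 melanocyte markers between 583 and 623 and between 446 and 1775, and that of 12 endothelial markers between 638 and 1521 and between 506 and 2119. For 18 immune markers these sums were between 216 and 1525 and between 306 and 1198, and for 9 Schwann cell markers between 1135 and 1596 and between 725 and 1272. The 12 dermal sheath and smooth muscle markers summed to between 8187 and 16097 at P24 and between 8130 and 15155 at P28. Of 57 keratin-associated protein genes of the hair shaft in the files none reached the filter. Adipocyte markers (12 genes) summed to 6683, 3927 and 1556 at P24 and to 14744, 13489 and 5897 at P28, and their part in the results was not tested. Of all these lists of markers of other cells no member passed the test between the ages. Of the 32 DP signature genes 1 did, Sox2, which is given below. A lower level in sorted tissue can come from fewer cells of a kind or from less RNA per cell, and these cannot be told apart here.

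Before the comparison, 2 properties separated the P28 libraries from one another. The first was collagen. Reads of Col1a1, Col1a2 and Col3a1, chains of the fibrillar collagens of dermis, made up 20.4%, 16.3% and 10.6% of the reads on genes in P24 replicates 1, 2 and 3, and 21.2%, 39.3% and 4.0% in P28 replicates 1, 2 and 3. A list of 14 other markers of dermal fibroblasts moved with it, with summed levels of 119921, 59238 and 35179 at P24 and 128289, 207108 and 35053 at P28. Within P28, the summed DP signature went the other way. It was lowest in replicate 2, where the collagen share was highest, and highest in replicate 3, where that share was lowest. The cause was not tested. The second was Hdac1 itself. It stood at 675, 668 and 668 normalized reads in the P24 controls, at 214, 529 and 105 in the P28 controls, at 209, 188 and 116 in dM1/2 at P24 and at 190, 149 and 126 in dM1/2 at P28. P28 control replicates 1 and 3 thus lay at or near the level of the mutants. Hdac2 gave 925, 1048 and 1069 normalized reads in the P24 controls and 1077, 968 and 1117 in the P28 controls, and between 1091 and 1282 in dM1/2, so total Hdac2 reads do not mark the deletion. The log2 fold change of Hdac1 between the ages was -1.55 (SE 0.54, limma, adjusted p = 0.197). The part that the Hdac1 genotype of single mice has in the results was not tested, and P24 and P28 control stand for the libraries labelled so.

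**Figure D1:**
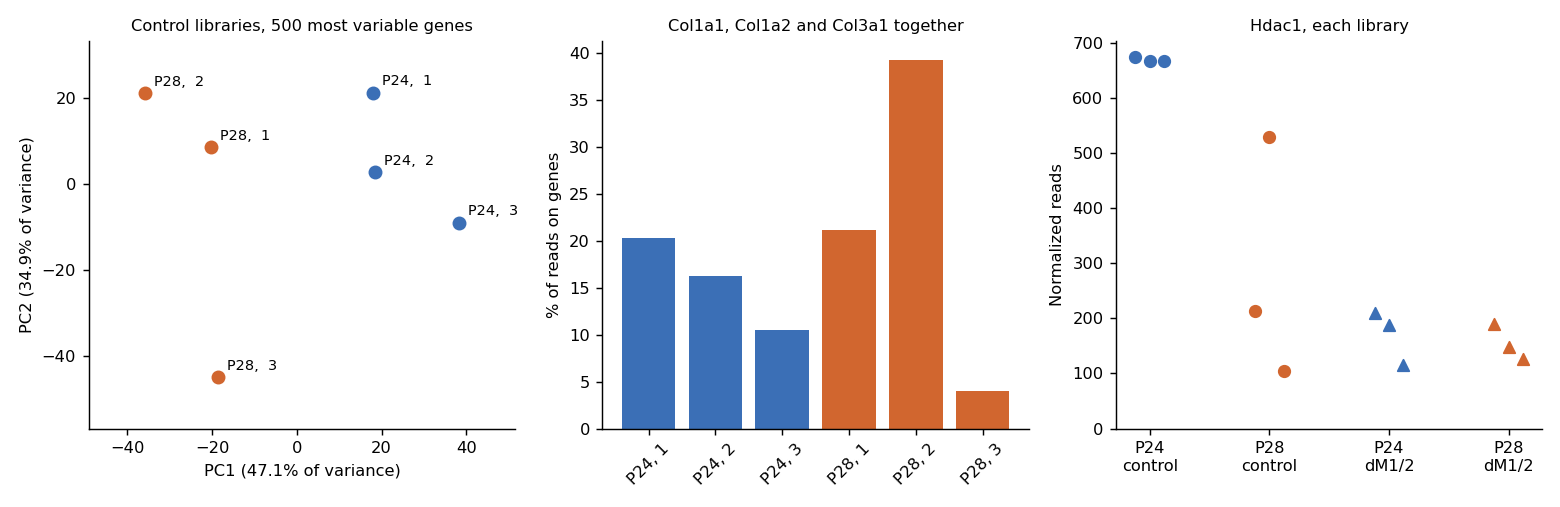
Left, principal components of the 6 control libraries over the 500 most variable genes (axes in component units, P24 blue, P28 orange); middle, share of reads on Col1a1, Col1a2 and Col3a1 in each library (bars, percent); right, Hdac1 normalized reads in each anagen library (circles control, triangles dM1/2). The ages separate on the first component (47.1% of variance), P28 replicate 3 stands apart on the second (34.9%), and Hdac1 is at 105 and 214 in 2 of the 3 P28 controls.

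Of 13966 genes tested, 204 differed between P24 and P28 in controls (1.46%; limma on log2(normalized reads + 1), two-sided, adjusted p under 0.05). At P28, 101 of them were higher (0.723% of genes tested) and 103 lower (0.738%). All 204 had ages that did not overlap, as did 26.6% of all genes tested. The median absolute log2 fold change of the 204 was 2.15, beside 0.26 over all genes, and the smallest was 0.72. With 3 mice per age a call needs a change that is large beside the spread. These sizes thus follow in part from how the genes were chosen. Without adjustment, 2593 genes (18.6%) had a p under 0.05. With 3 mice against 3 an exact permutation test of a single gene cannot go below 0.1, so the calls rest on the model across genes.

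The count depended on single mice. It was 0 without P24 control replicate 1, with 2422 genes at an unadjusted p under 0.05, and 33 and 10 without P24 control replicates 2 and 3. It was 15, 23 and 67 without P28 control replicates 1, 2 and 3. When both P28 controls with a low Hdac1 level were left out, 78 genes were called, 27 of them among the 204. This fit, added after seeing the data, has a lone P28 library that is assumed to vary like the P24 libraries. With the collagen level of each library as a covariate, which was also added then, 943 genes (6.75%) differed between the ages, among them all 204. At a given age, 1158 of the 13966 genes tested went with the collagen level, of which 1 was among the 204. A call among the 204 needs a small spread within each age, and a call for collagen needs a spread there. The small overlap thus follows from how the genes were chosen, and the part of collagen in the 204 calls cannot be read from it.

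**Figure D2:**
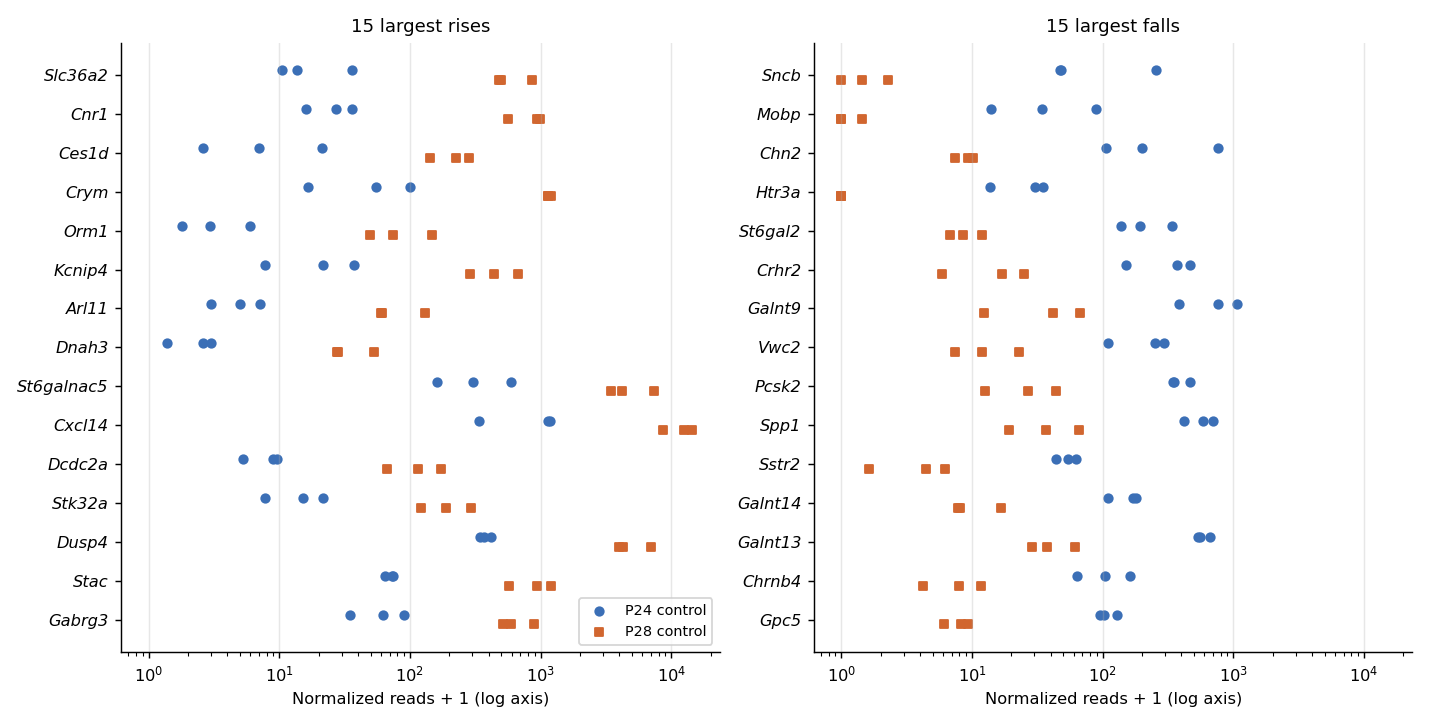
Normalized reads plus 1 (log axis) of the 15 genes with the largest rise (left) and the 15 with the largest fall (right) between P24 (circles) and P28 (squares), 1 point per control library. In each of the 30 genes the 3 libraries of one age lie on one side of the 3 of the other.

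Of the 15 largest rises, Cnr1, the cannabinoid receptor CB1 (chr4:33924593-33948831, GRCm38), was at 15.1, 26.1 and 35.3 normalized reads at P24 and at 561, 981 and 944 at P28 (log2 fold change 5.0, SE 0.37, limma, adjusted p = 0.0106). Slc36a2, a carrier of proline and glycine, went from 12.8, 35.1 and 9.53 to 477, 494 and 861. Crym, a cytosolic protein that binds thyroid hormone, went from 53.8, 99.4 and 15.5 to 1141, 1199 and 1149. In all of these the lowest mouse at P28 exceeded the highest at P24 by a wide margin, and P24 replicate 3 or 1 was the lowest of its age.

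Cxcl14, a chemokine made by fibroblasts and epithelium (chr13:56288643-56296551), was another of the largest rises. It was at 1146, 1181 and 336 normalized reads at P24 and 12466, 8687 and 14531 at P28 (log2 fold change 3.92, SE 0.51, limma, adjusted p = 0.0309). St6galnac5, which adds sialic acid to gangliosides, was at 302, 590 and 161 and then at 3458, 4219 and 7380, and it overlaps Pigk on the other strand. Gpr176, an orphan receptor coupled to G proteins that was picked after its values were seen because its adjusted p was the smallest of all (0.00539, limma), was at 72.7, 66.3 and 87.7 and then at 759, 671 and 796. Its spread between mice was small at both ages.

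The other large rises were those of Ces1d, a carboxylesterase (log2 fold change 4.84), Orm1, a plasma glycoprotein of the acute phase (4.69), Kcnip4, a partner of potassium channels (4.57), Arl11, a small GTPase (4.04), Dnah3, a dynein heavy chain (3.97), Dcdc2a, a microtubule-binding protein (3.84), Stk32a, a kinase (3.79), Stac, an adaptor of calcium channels (3.60), and Gabrg3, a subunit of the GABA-A receptor (3.48). Their limma adjusted p lay between 0.0121 for Stac and 0.0448 for Ces1d. Orm1 and Dnah3 had under 6 normalized reads in each P24 library, so their fold changes depend on the pseudocount. Kcnip4 overlaps Pacrgl and Dnah3 overlaps Lyrm1 on the other strand.

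Of the 15 largest falls, Htr3a, a serotonin-gated ion channel, had 12.8, 34.1 and 29.4 normalized reads at P24 and no read in any P28 control, at least 17.5-fold lower when the limit of 3 reads was taken for each P28 library. Sncb, beta-synuclein, had 861 reads at P24 and 3 at P28, a ratio of 263 (95% interval of counting error 89.6 to 1277). Mobp, a myelin protein, had 332 reads and then 1. In P24 replicate 3, Sncb (257 normalized reads) and Mobp (87.3) were higher than in the other P24 mice (46.2 and 47.2 for Sncb, 13.1 and 33.3 for Mobp).

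Spp1, osteopontin, a secreted phosphoprotein of mineralized matrix (chr5:104435118-104441050), fell from 419, 585 and 703 normalized reads to 65.2, 35.9 and 18.2 (log2 fold change -3.95, SE 0.46, limma, adjusted p = 0.0305). Pcsk2, a convertase that cuts prohormones, fell from 341, 348 and 468 to 42.6, 11.5 and 25.8. Crhr2, a receptor for urocortins, fell from 366, 151 and 468 to 23.9, 16 and 4.93. All 3 were lower in every P28 mouse than in any P24 mouse.

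Galnt13 (chr2:54436317-55118309), Galnt9 and Galnt14, which start mucin-type O-glycans on proteins, were among the 15 largest falls, as was the sialyltransferase St6gal2. Galnt13 fell from 665, 535 and 556 normalized reads to 60.9, 27.5 and 36.4 (log2 fold change -3.85, SE 0.30, limma, adjusted p = 0.0121). St6gal2 fell from 337, 191 and 138 to 10.9, 5.76 and 7.58 (-4.56, SE 0.41, limma, adjusted p = 0.0214). Because of these genes the whole family was listed after the values were seen: of 39 polypeptide GalNAc-transferases and sialyltransferases in the files, 34 were tested, 6 fell and 1 rose, beside 0.738% and 0.723% of all genes, and 47.1% had ages that did not overlap, beside 26.6%. Their log2 fold changes ran from -4.56 to 3.95 around a median of -0.06, beside -0.02 for all genes. A list made in this way is no independent evidence.

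Chn2, a GTPase-activating protein for Rac (-4.84), Vwc2, a secreted BMP antagonist (-3.99), Sstr2, a somatostatin receptor (-3.90), Chrnb4, a nicotinic receptor subunit (-3.81), and Gpc5, a glypican (-3.79), completed the list, with limma adjusted p from 0.0148 for Gpc5 to 0.041 for Sstr2. Gpc5 had the narrowest values, 101, 127 and 94.1 normalized reads at P24 and 8.26, 5.12 and 7.21 at P28. Sstr2 overlaps Slc39a11 on the other strand, and whether the authors' counting used the strand is not given in the sources used here.

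The list with the largest number of calls was that of the replication-dependent histones, taken as the histone cluster genes. Most of these are transcribed in S phase to package new DNA, and whether each member is was not checked. Of 69 in the files, 56 were tested, 19 fell and none rose, where 0.738% of all genes fell. Their median log2 fold change was -2.17, 54 of the 56 were below 0, and 51 of the 56 (91.1%) had ages that did not overlap, beside 26.6% of all genes. Hist1h3i, a histone H3 gene, fell from 124, 128 and 185 normalized reads to 15.2, 18.6 and 15.2 (log2 fold change -3.06, SE 0.26, limma, adjusted p = 0.0181). The linker histone gene Hist1h1b fell from 448, 323 and 798 to 68.7, 76.2 and 75.5, and Hist1h1a from 542, 409 and 1083 to 76.6, 55.7 and 129. P24 replicate 3 was the highest library for all 3 genes. Copies of these genes are nearly identical, and reads that map to several of them may have been dropped or split by the counting, so single members are less certain than the group. The number called went from 19 to 0 without P24 control replicate 1 or 3, P28 control replicate 1, or P28 control replicates 1 and 3 together, and to 2, 1 and 9 without P24 control replicate 2 and P28 control replicates 2 and 3, while the median stayed between -2.43 and -1.90 with any 1 library left out. The number called lower was 42 with the collagen covariate, where 496 of all 13966 genes tested were called lower. It was 14 with edgeR, beside 67 of all genes, and 4 with a replicate block, beside 16.

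The promoters of these genes are shown because the members moved together. The windows are the 120 bases before the RefSeq transcript start in GRCm38.p6, given 5′ to 3′ on the strand of the gene, with CCAAT or its reverse complement ATTGG, the octamer ATTTGCAT and TATAAA in capitals. Hist1h1a (chr13:23763548-23763667, plus strand), Hist1h1b (chr13:21780626-21780745, minus strand) and Hist1h3i (chr13:21783398-21783517, minus strand) were chosen for their fall, Hist1h2bb (chr13:23746614-23746733, plus strand) because it holds the octamer, and Mcm3 (chr1:20820313-20820432, minus strand) as the replication gene that fell and holds CCAAT.
Hist1h1a: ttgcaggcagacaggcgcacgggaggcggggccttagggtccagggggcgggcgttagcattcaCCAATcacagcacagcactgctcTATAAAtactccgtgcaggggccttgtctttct
Hist1h1b: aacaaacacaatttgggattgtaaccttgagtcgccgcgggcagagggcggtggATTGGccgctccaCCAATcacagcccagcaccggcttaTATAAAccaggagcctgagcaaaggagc
Hist1h3i: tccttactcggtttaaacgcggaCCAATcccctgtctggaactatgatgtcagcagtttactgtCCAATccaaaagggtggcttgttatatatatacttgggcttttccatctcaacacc
Hist1h2bb: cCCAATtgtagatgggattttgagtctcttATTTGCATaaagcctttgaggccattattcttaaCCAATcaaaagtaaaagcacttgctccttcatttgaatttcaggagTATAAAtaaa
Mcm3: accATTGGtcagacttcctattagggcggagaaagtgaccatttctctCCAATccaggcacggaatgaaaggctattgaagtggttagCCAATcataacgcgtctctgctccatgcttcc
CCAAT on either strand was in the windows of 37 of the 48 tested histone genes that matched a promoter (77.1%) and in 21.3% of 32851 promoters. The octamer ATTTGCAT was in 5 of the 48 (10.4%) and in 0.791% of all, and TATAAA in 17 (35.4%) and 6.34%, both strands being searched. Among 20 replication genes CCAAT was in 14 (70%), but of the 3 that fell only Mcm3 holds it (33.3%), and among 17 mitosis genes in 13 (76.5%), with no octamer and no TATAAA in the replication and mitosis genes. These are matches of letters and were not tested as binding sites. Windows of some neighbouring histone genes on opposite strands overlap, as those of Hist1h2ae and Hist1h2bg do. A motif there can be counted for both genes, and the 48 windows are not all separate sequences. The start used for Hist1h1d lay 1770 bases from its annotated start.

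Other cell cycle genes lay mostly below 0. The list held 23 tested genes of replication, 21 of mitosis, 12 cyclins and kinases and 9 inhibitors of the cycle. Of the 9 inhibitors, 6 had a log2 fold change below 0. The other 3 were above 0, all with an unadjusted p under 0.05 (limma). Of 65 tested, 58 had a log2 fold change below 0, 48 of them with an unadjusted p under 0.05, and 3 fell, where of all genes 51.8% were below 0, 10.3% were lower at that unadjusted p and 0.738% fell. The 3 were Mcm2 and Mcm3, subunits of the replicative helicase, and Cdt1, which loads it. Mcm2 fell from 327, 299 and 451 normalized reads to 84.4, 96.7 and 70.9 (log2 fold change -2.07, SE 0.22, limma, adjusted p = 0.0243). All 21 mitosis genes had a log2 fold change below 0, with a median of -1.95, and none passed the adjusted threshold. Top2a, a topoisomerase of dividing cells, gave 976, 665 and 2387 at P24 and 270, 183 and 193 at P28 (adjusted p = 0.0632, limma). Mki67, the proliferation marker Ki67, gave 850, 560 and 1864 and then 271, 274 and 198 (0.0782). The high value of P24 replicate 3 widened the spread of both. The collagen covariate brought the cell cycle genes called lower to 24 of 65 (3.55% of all genes were called lower in that fit). With edgeR 1 was left, beside 67 of all 13966 genes. DESeq2 called 40 (it called 10.7% of all genes in either direction). With 1 library left out it was 2 without P28 control replicate 3 and 0 in each of the other 5 fits. Without P24 control replicate 3 the median of the mitosis genes was still negative, as it was in every fit with 1 library left out (from -2.27 to -1.58).

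**Figure D3:**
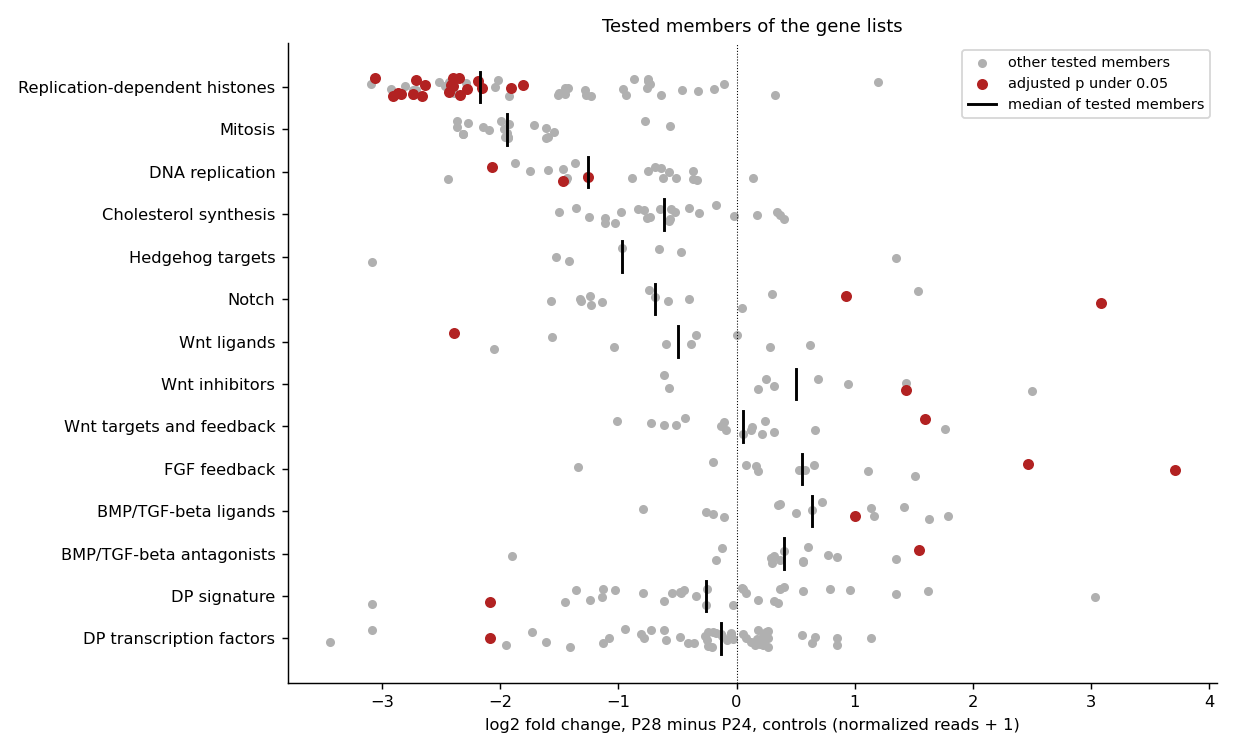
Log2 fold change between P24 and P28 in controls (x axis) of the tested members of 14 gene lists (1 point per gene, jittered vertically), with members past the adjusted threshold in red and the median of each list as a black bar. The histone median lies at -2.17 and that of the mitosis genes at -1.95, the other medians lie nearer to 0, and only a few points outside the histones are red.

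FGF signalling was examined by role. FGF ligands bind receptor tyrosine kinases, and the Sprouty and Dusp genes that the ERK pathway turns on limit it in return. Of 12 feedback genes tested, 2 rose and none fell, beside 0.723% of all genes that rose, and their median log2 fold change was 0.56. Dusp4, a phosphatase of MAP kinases (chr8:34807297-34819894), rose from 342, 418 and 369 normalized reads to 4006, 4244 and 7035 (log2 fold change 3.71, SE 0.23, limma, adjusted p = 0.00946). Spry1, Sprouty 1 (chr3:37639947-37644598), rose from 1154, 1671 and 1176 to 6441, 6154 and 9727 (2.47, SE 0.24, limma, adjusted p = 0.0243). P28 replicate 3 was the highest in both, and every P28 mouse exceeded every P24 mouse.

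The feedback genes did not all behave alike. Spry4 gave 937, 1127 and 859 and then 2651, 1867 and 4277 (1.51, limma, adjusted p = 0.0689), Dusp6 a log2 fold change of -0.20 and Dusp5 of -1.34, neither past the threshold. No ligand or receptor passed the test. Fgf7 was at 12541, 18377 and 10568 normalized reads at P24 and 12442, 4908 and 15936 at P28, and Fgf10 at 10602, 15010 and 5130 and then 15087, 5222 and 23753. At P28 both ligands were lowest in replicate 2, the library with the highest collagen share, and the ages overlapped. The log2 fold change of the receptor Fgfr1 was -0.88, with an adjusted p of 0.194 (limma).

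Among 40 Wnt pathway genes tested, 2 rose and 1 fell, beside 0.723% and 0.738% of all genes. Apcdd1, a membrane inhibitor of Wnt signalling that is itself a target of it, rose from 5656, 7715 and 5041 normalized reads to 16093, 18251 and 20509 (log2 fold change 1.59, SE 0.21, limma, adjusted p = 0.0329). Dkk3, a secreted member of the Dickkopf family, rose from 1185, 1174 and 797 to 2569, 3118 and 2746 (1.44). Wnt16, a ligand at a low level, fell from 44.5, 34.6 and 72.6 to 10.4, 7.04 and 7.96 (-2.39, limma, adjusted p = 0.0484). Apcdd1 and Dkk3 thus rose and the ligand Wnt16 fell.

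Several Wnt genes with many reads lay outside the threshold. Axin2, a target that feeds back on the pathway, gave 947, 1537 and 631 normalized reads and then 3046, 2548 and 4616 (1.76, limma, adjusted p = 0.0743). The secreted inhibitor Sfrp1 gave 10685, 13910 and 5418 and then 50271, 38464 and 75205 (2.50, 0.0514). Wnt5a, a ligand of the anagen DP, gave 17610, 12479 and 21966 and then 6388, 4126 and 7169 (-1.56, 0.0641). The ages did not overlap in any of these 3, but the differences did not pass the adjusted threshold.

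R-spondins amplify Wnt signals by sparing its receptors, and the 4 of them were all expressed. Rspo4 gave 3273, 7363 and 781 normalized reads at P24 and 16691, 16662 and 37365 at P28 (log2 fold change 3.04, limma, adjusted p = 0.118), with a wide range within P24. The log2 fold changes of Rspo1, Rspo2 and Rspo3 were 0.35, -0.35 and 0.37, and their adjusted p lay between 0.304 and 0.691 (limma). Ccnd1, cyclin D1, was at 400, 554 and 166 and then 374, 644 and 251 (adjusted p = 0.859, limma).

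In the BMP and TGF-beta families, 51 genes were tested, 2 rose and none fell, beside 0.723% and 0.738% of all genes, and the median log2 fold change was 0.33. Tgfb3, a ligand, rose from 972, 933 and 704 normalized reads to 1807, 1729 and 1647 (1.0, SE 0.15, limma, adjusted p = 0.0413). Fstl3, a follistatin-like protein that binds activins, rose from 146, 165 and 98.1 to 325, 377 and 481 (1.54, 0.0478). Tgfb3 overlaps Ttll5 and Fstl3 overlaps Prss57 on the other strand.

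Inhba, which encodes an activin chain, gave 1918, 3037 and 3180 and then 6819, 7108 and 11362 (1.63, limma, adjusted p = 0.0528), and Fst, follistatin, gave 5961, 7662 and 9325 and then 2353, 1209 and 2875 (-1.90, 0.0576). An activin chain and its secreted inhibitor thus lay on opposite sides of 0 just outside the threshold. Nog, the BMP antagonist noggin, gave 320, 431 and 279 and then 978, 633 and 1040 (1.35, 0.0595). Of the 15 ligands tested, 11 had a log2 fold change above 0, 8 of them with an unadjusted p under 0.05. Of all genes 48.2% were above 0, and 8.28% were higher with such a p.

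Hedgehog ligand from the epithelium induces Ptch1 and Gli1 in the DP. No hedgehog gene passed the test, and the 7 target genes had a median log2 fold change of -0.97, with 6 below 0. Ptch1, the receptor, gave 25814, 22867 and 48546 normalized reads at P24 and 9730, 7523 and 16223 at P28 (-1.53, limma, adjusted p = 0.114). Gli1, the transcription factor, gave 2347, 3007 and 4576 and then 1241, 893 and 1532 (-1.42, 0.0746). The ages did not overlap in either, and P24 replicate 3 was the highest library in both.

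Of 15 Notch genes tested, the receptors Notch4 and Notch2 rose and none fell, beside 0.723% and 0.738% of all genes. Notch4 went from 60.0, 143 and 40.5 normalized reads to 881, 554 and 448 (log2 fold change 3.08, SE 0.49, limma, adjusted p = 0.045). Notch2 went from 3405, 2953 and 3240 to 6382, 6335 and 5492 (0.92, SE 0.13, limma, adjusted p = 0.037). The ligand Jag1 (-1.23) and the target Hey1 (-1.14) had log2 fold changes below 0 that did not pass the test, as had 10 of the 15 in all.

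Of 51 transcription factors of the DP tested, Sox2 fell and none rose, beside 0.738% and 0.723% of all genes. Sox2, which marks the DP of the larger hair types (chr3:34650405-34652461), went from 1338, 948 and 1311 normalized reads to 385, 179 and 313 (log2 fold change -2.09, SE 0.30, limma, adjusted p = 0.0384). It was also the only member of the 32-gene DP signature past the threshold. Sox18 gave 2815, 1509 and 2292 and then 357, 96.7 and 459 (-3.08, limma, adjusted p = 0.0641). In both the lowest library was P28 replicate 2.

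Pigment signals of the DP include agouti (a), which switches melanocytes to yellow pigment, Corin, a protease that limits it, and Edn3, which supports melanocytes. None passed the test. Agouti gave 7685, 15607 and 9680 normalized reads at P24 and 2036, 49.95 and 474 at P28 (log2 fold change -4.84, SE 1.23, limma, adjusted p = 0.108), with a wide spread at P28. Corin gave 12267, 17134 and 15411 and then 41112, 30326 and 75255 (1.62, 0.0888). Corin also drives the Cre of every mouse, and whether its level bears on recombination was not tested. Edn3 gave 10897, 9565 and 8444 and then 10727, 3658 and 12431, and the ages overlapped.

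Of 15 retinoid genes tested 1 fell, of 45 semaphorin and ephrin genes 2 and of 10 bone and mineral genes 1, beside 0.738% of all genes, and of 105 matrix genes 1 rose, beside 0.723%. Cyp26b1, which breaks down retinoic acid (chr6:84571414-84593908), fell from 14147, 15020 and 22076 normalized reads to 3247, 5086 and 4186 (log2 fold change -2.03, SE 0.25, limma, adjusted p = 0.0309). Sema3g fell from 1924, 1957 and 2922 to 739, 692 and 705 (-1.64, 0.0268) and Sema7a from 179, 137 and 184 to 57.0, 70.4 and 41.7 (-1.56, 0.0479). The bone and mineral gene was Spp1, given above, and the matrix gene was the convertase Pcsk5, which rose from 1733, 1577 and 1152 to 3993, 3760 and 5110 (1.53, limma, adjusted p = 0.0309).

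Other processes gave no call in either direction. Of 78 ribosomal protein genes the log2 fold changes lay between -0.19 and 0.28 around a median of 0.10, and of 76 subunits of the respiratory chain between -0.32 and 0.43 around a median of -0.00. None of the tested p53 targets (20), immediate early genes (27), clock genes (19), secretory pathway genes (30), glycolysis genes (24), interferon-stimulated genes (25), Hox genes (26), growth factor genes (48) or mitochondrial transcripts (13) passed the test. The 24 cholesterol synthesis genes had a median of -0.61, with 10 at an unadjusted p under 0.05 on the lower side and none past the adjusted threshold.

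The same genes were then described in the telogen controls, with no test, since those libraries hold fewer reads (8843748 to 13369732) and came from females at P20 and from both sexes at P60. A gene can have the same level at P28 as in the resting DP, or be particular to P28 among the 4 ages. Dusp4 had a mean of 470 ± 61.9 normalized reads in P20 libraries (SD, n = 3), and of 376 ± 38.3, 5095 ± 1684 and 430 ± 161 in those of P24, P28 and P60. Cxcl14 stood at 664 ± 227, 888 ± 478, 11895 ± 2964 and 877 ± 167 at these ages, and Cnr1 at 74.5 ± 33.1, 25.5 ± 10.1, 829 ± 233 and 36.5 ± 8.16. In these genes P28 was the only age with a high level.

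Apcdd1 followed another order, with 21454 ± 2438, 6137 ± 1400, 18284 ± 2208 and 18797 ± 5242 normalized reads in the same order of ages (SD, n = 3), so P24 was the low age. Notch2 (6786 ± 137, 3199 ± 229, 6070 ± 501 and 7989 ± 847) and Cyp26b1 (14859 ± 6213, 17081 ± 4348, 4173 ± 920 and 23114 ± 9352) also had a single age apart, P24 for Notch2 and P28 for Cyp26b1. Vip, a neuropeptide that was picked after its values were seen, had no read in any of the 6 libraries of P20 and P60, 519 ± 229 normalized reads at P24 and 42.5 ± 30.5 at P28. Sox2 was at 74.0 ± 25.6, 1199 ± 217, 292 ± 105 and 76.6 ± 33.9.

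Of the 101 genes that rose, 30 (29.7%) had a P20 mean nearer to that of P28 than of P24, and of the 103 that fell 67 (65.0%), beside 54.3% of all genes tested. With P60 these shares were 46.5% and 85.4%, beside 55.4%. Nearer is not equal. Of the 103 genes that fell, 37 had a P20 mean and 63 a P60 mean below the means of both P24 and P28. Of all 13966 genes tested, 6015 and 6112 had such means. At P20 this was thus no more frequent among the genes that fell, and at P60 it was more frequent among them. In the 37 and 63 genes the P28 level was still above that of telogen, as in Sox2. No test of these shares was run.

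**Figure D4:**
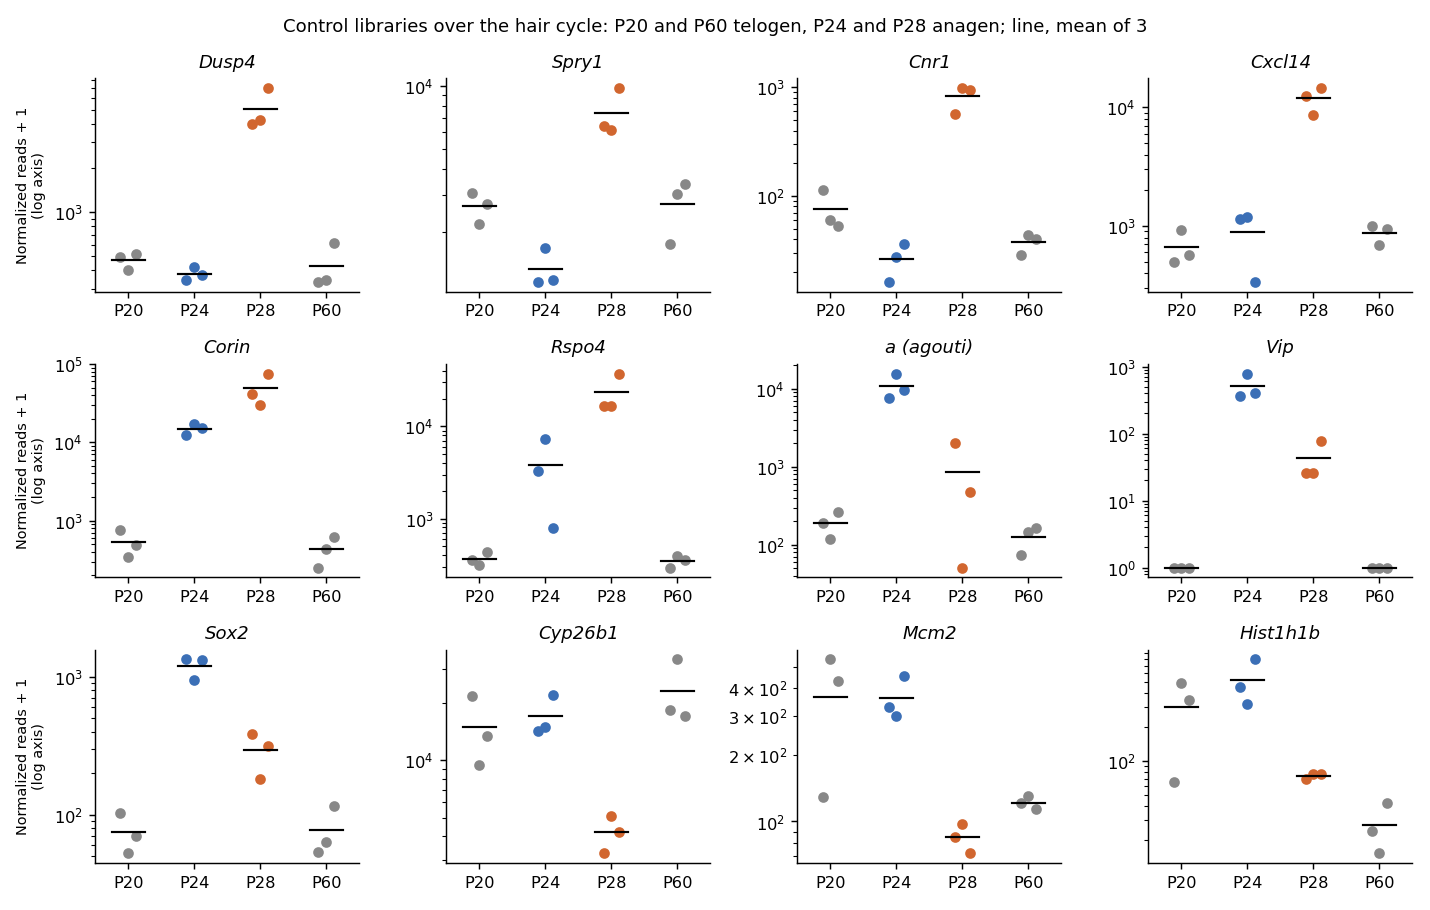
Normalized reads plus 1 (log axes) of 12 genes in the 3 control libraries of each age (points) with their mean (line); P20 and P60 are telogen, P24 and P28 anagen. Dusp4, Cnr1 and Cxcl14 are high at P28 alone, Sox2 and agouti peak at P24, and Cyp26b1 is lowest at P28.

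The dM1/2 mice give the same ages in animals that are no part of the control comparison. In them 375 of 14032 genes differed between P24 and P28 (2.67%), 237 higher and 138 lower. Of the 101 genes that rose in controls, 94 were tested in dM1/2, 81 had a log2 fold change above 0 (51.4% of all genes had), 23 rose and none fell (1.69% of all genes rose). Their median log2 fold change was 0.47, beside 1.72 in controls. Of the 103 that fell, 97 were tested, 86 were below 0, 14 fell (0.983% of all genes fell) and 3 rose, and the median was -0.53, beside -2.28. A smaller value than in controls has to be read with care, because the genes were chosen for their size in the control libraries. The count in dM1/2 was 57 without P28 dM1/2 replicate 2 and 132 and 143 without P24 replicate 1 and P28 replicate 3.

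The difference of the 2 changes was tested over the 12 anagen libraries, which include the control libraries that chose the genes. It passed the threshold for 100 of 14139 genes (0.707%), with the change higher in dM1/2 than in controls for 64 (0.453%) and lower for 36 (0.255%). The count was 20 and 14 without P24 control replicates 1 and 3, 167 without P28 control replicate 2, and between 8 and 23 without any 1 of the dM1/2 libraries. Among the genes that rose in controls, 23 of 100 tested differed, and among those that fell, 35 of 102. Dusp4 was at 527, 438 and 413 normalized reads in dM1/2 at P24 and at 970, 779 and 970 at P28, so it rose there by 0.98 on the log2 scale and by 3.71 in controls (difference -2.73, limma, adjusted p = 0.00919). Cnr1 was at 27.6, 10.3 and 7.1 and then 14.1, 39.0 and 29.3 in dM1/2 (difference -4.07, 0.0379). Both ages of dM1/2 lay near the level of the P24 controls for Cnr1.

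Spry1 rose in both genotypes, from 1152, 1456 and 1734 to 4597, 3852 and 4300 normalized reads in dM1/2, and the difference of its changes was -0.90 (limma, adjusted p = 0.234). Stac rose in both as well, from 293, 303 and 287 to 1397, 1414 and 891 in dM1/2. Cyp26b1 did not pass the test in dM1/2, at 19002, 25017 and 22380 and then 24173, 21023 and 18246, and its change differed from that of controls by 1.96 (limma, adjusted p = 0.031). Of the 57 histone genes tested in dM1/2 1 fell, beside 0.983% of all genes, with a median of -0.52. The change differed between genotypes in 6 of 57, beside 0.707% of all genes. The control libraries in which these genes fell also entered that test. Levels were higher in dM1/2 at both ages (Hist1h1b, 2397, 1384 and 2680 at P24 and 1353, 1391 and 1505 at P28).

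**Figure D5:**
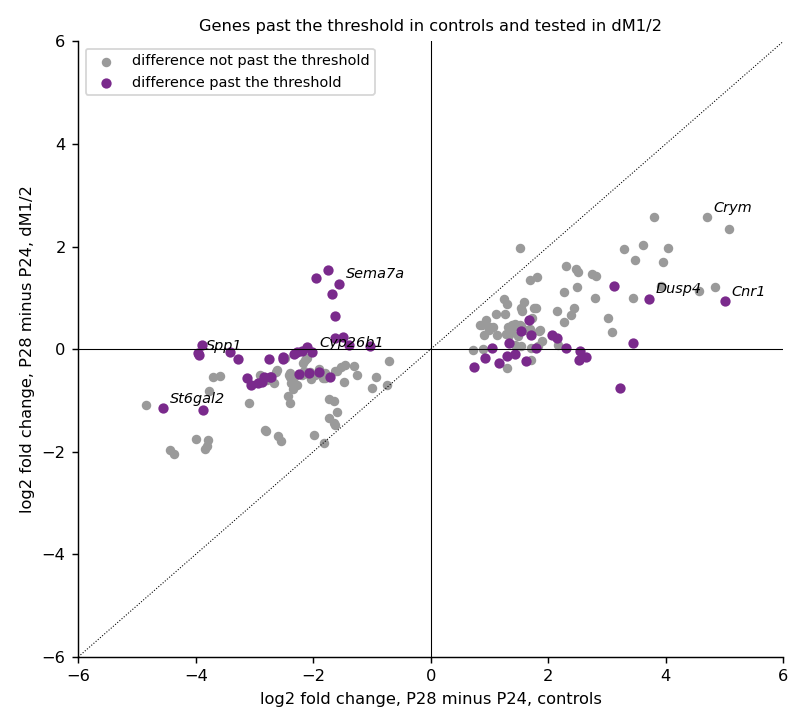
Log2 fold change between P24 and P28 in dM1/2 (y axis) against that in controls (x axis) for the called genes tested in both, with genes whose change differed between genotypes in purple and equality as the dotted line. Most points lie between the dotted line and 0 on the y axis, with Spp1 close to 0 in dM1/2 (-0.11), Cnr1 at 0.93 and Sema7a on the opposite side.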

How the data were processed

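RNA of sorted DP cells was sequenced from 24 mice, and the 6 control libraries of P24 and P28 were compared here. The authors depleted ribosomal RNA from 100 ng of RNA, sequenced single ends, and used Trimmomatic for trimming, Tophat for alignment to mm10, HTSeq for counting and DESeq2 for normalization. The deposited signal of a gene in a library is a read count divided by a size factor. Dividing by the value of a single read gave whole reads for 100% of values over 25755 genes. The tolerance was 0.01 reads, and for high counts it grew with the count. The authors also deposited log2 fold change and p-value columns for their own comparisons, which were not used. The strand setting of the counting is not given in the sources used here.

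Since the values were normalized, the main test was a two-sided limma fit (version 3.58.1 in R 4.3.3, eBayes with trend) of log2(normalized reads + 1). Genes entered it if their mean over the libraries fitted was 10 or more, and p-values were adjusted by Benjamini-Hochberg over all genes tested. edgeR 4.0.16 and DESeq2 1.42.0 on the recovered reads, another pseudocount, no filter, other scalings, a replicate block and leaving out each library were alternatives. The collagen covariate and the fit without 2 P28 controls were added after seeing the data. The scripts were tested on simulated data. Replicates differed by more than counting error in every pair, and p-values measure the spread between these mice. Promoters and transcript starts are from RefSeq on GRCm38.p6, and gene positions from the GENCODE annotation of GRCm38, which matched 25431 genes.

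The genes named are the 15 largest rises and falls past the threshold with ages that did not overlap, without predicted genes, up to 6 called members of each list, Hdac1, Hdac2 and DP genes the study names, the 5 largest differences between genotypes, 1 of which is not reported here, and the 5 genes with the largest SD at each age. Other list members were named after their values were seen. The members and lists were chosen with earlier results of these data known.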

Additional observations from a re-analysis of the deposited data

Results flagged for a closer look

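The change from P24 to P28 differed between controls and dM1/2 for 21 of the genes named by the rule, by the test of the difference itself (limma over 12 libraries, adjusted p under 0.05; 0.707% of all genes). Values are the log2 change in dM1/2 minus that in controls. Among the genes that rose in controls, the difference was -4.07 for Cnr1, -2.73 for Dusp4, -1.18 for the convertase Pcsk5 and -1.09 for Notch2. Among the genes that fell, it was 3.98 for Sstr2, 3.9 for Pcsk2, 3.83 for Spp1, 3.40 for St6gal2, 2.84 for Sema7a, 2.70 for Galnt14, 1.96 for Cyp26b1 and 1.6 for Mcm2. For histone genes it was 2.36 for Hist1h3i, 2.30 for Hist1h3b, 2.23 for Hist1h3c, 2.20 for Hist1h2ak and 2.16 for Hist1h1b. These genes passed the threshold in the same control libraries, so the differences are not independent of that choice.

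The other 4 were named for the size of the difference and had no call in controls: Cntn3, a cell adhesion protein (4.82), Rab3b, a vesicle GTPase (4.49), Slc12a1, a cotransporter of sodium, potassium and chloride (4.43), and Cemip, which breaks down hyaluronan (4.40). Slc12a1 had between 19.3 and 49.6 normalized reads in all 6 controls, between 61.2 and 70.1 in dM1/2 at P24, and 1504, 2519 and 859 in dM1/2 at P28. Cntn3 gave 191, 209 and 257 and then 110, 21.8 and 110 in controls, and 38.2, 93.3 and 44.98 and then 370, 689 and 401 in dM1/2. Rab3b gave 228, 168 and 356 and then 35.7, 3.84 and 6.83 in controls (log2 fold change -4.43, limma, adjusted p = 0.052). In dM1/2 it lay between 160 and 228 in every library. Cemip was below the filter in controls and was not tested there. The causes of these 4 differences were not tested.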

How the results depend on the processing

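The count of 204 genes in controls was 27 with a replicate block, 1494 with DESeq2, 1328 with all 24 libraries in one fit, 943 with the collagen covariate and 78 without P28 control replicates 1 and 3, and between 0 and 67 with 1 library left out. All 204 were also called by DESeq2 and 143 by edgeR, and 131 of them were called in none of the 6 fits with a library left out. The labels state no pairing, and the numbers were not taken to pair the libraries. The deviations of those with number 1, 2 and 3 correlated at 0.31, -0.08 and 0.32, and those of unlike numbers between -0.43 and 0.30. Numbers 1 and 3 thus had the highest values of all pairs, and number 2 did not deviate together. These values do not settle whether the libraries were paired. The count in dM1/2 was between 57 and 446 with 1 library left out, and 450 with the replicate block. The count of differences between genotypes was 151 with a pseudocount of 10, 49 with the replicate block and between 8 and 167 with 1 library left out. The log2 fold change of Slc12a1 in controls (0.03) was -0.055 with edgeR. Some log2 fold changes that did not pass the test crossed 0 with 1 library left out: -0.26 to 0.61 for Ccnd1, -0.61 to 0.27 for Edn3, -0.074 to 1.02 for Fgf10, -0.78 to 0.066 for Fgf7, -0.0082 to 0.12 for Hdac2, -0.67 to 0.10 for Rspo2 and -0.25 to 0.41 for Slc12a1. The results rest on 3 mice per age, with Hdac1 and collagen levels that differ within P28, at a depth of 35469841 reads or more. The causes were not tested.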

Other observations

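The following genes among the 204 were picked after their values were seen. Apoe, the lipid carrier apolipoprotein E, rose from 5809, 7477 and 4870 normalized reads to 23201, 15490 and 26931 (log2 fold change 1.84, limma, adjusted p = 0.04). Masp1, a protease of the lectin pathway of complement, rose from 1055, 1761 and 1069 to 6893, 7526 and 11739. Penk, the precursor of enkephalins, rose from 600, 508 and 220 to 1873, 2245 and 1764. Cntn1, a contactin of the cell surface, rose from 2499, 3514 and 3485 to 11170, 8225 and 16999.

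Rgs2, which shortens signals of G protein-coupled receptors, rose from 299, 503 and 220 normalized reads to 2240, 2900 and 3391 (3.12, limma, adjusted p = 0.0243). Cntfr, a receptor subunit for ciliary neurotrophic factor, rose from 321, 308 and 233 to 1224, 1296 and 1265 (2.14, limma, adjusted p = 0.0106), and its P28 values lay within a narrow range. In dM1/2 Cntfr gave 343, 332 and 466 and then 476, 515 and 337, and its change differed from that of controls by -1.93 (limma, adjusted p = 0.0212).

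Among the falls, Cxcr4, a chemokine receptor, went from 1584, 712 and 1773 normalized reads to 195, 179 and 127, and Trib2, a pseudokinase, from 1619, 1129 and 3186 to 296, 258 and 217. St8sia2, which makes polysialic acid, fell from 934, 863 and 1949 to 137, 121 and 101 (-3.28, limma, adjusted p = 0.0243), and gave between 1081 and 1610 in every dM1/2 library of both ages (difference of changes 3.09, limma, adjusted p = 0.0107). Megf6, a protein with EGF-like repeats, fell from 14754, 13708 and 19414 to 4447, 2423 and 3430. The neuropeptide Vip fell from 366, 782 and 409 to 24.8, 25 and 77.7.

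The genes that varied most between mice of 1 age were mostly at a low level. At P24 they were Aqp4 (106, 65.8 and 0 normalized reads), the platelet gene Pf4 (82.0, 15.6 and 0), the basal keratin Krt14 (12.4, 76.8 and 0) and the macrophage genes Cd209d (70.4, 15.6 and 0) and Adgre1 (133, 16.1 and 0.79), with P24 replicate 3 at 0 or lowest in each. At P28 they were Trim30d (178, 0 and 0), Chil1 (1.3, 73.0 and 575), Ren1 (0, 81.3 and 2.28), Car3 (194, 18.6 and 1.14) and Klk1 (8.7, 152 and 0.76). A value of 0 allows up to 3 reads in that library.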
